A study of Mus musculus with 20 samples.

Results

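The mRNAs of Aurora A (Aurka), TPX2 (Tpx2), TACC3 (Tacc3) and anillin (Anln) were followed on ribosomes and in total RNA while mouse oocytes left prophase arrest and assembled the first meiotic spindle. The 4 genes were taken by symbol and not by a cutoff on their values, but with earlier results of these data known. All 4 were listed in both deposited tables, as 4 of 7543 genes measured in ribosome-bound mRNA and 4 of 7917 measured in total RNA; 7346 genes were in both.

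The oocytes came from 3-week-old C57BL/6 females carrying Zp3-Cre and RiboTag, an allele that puts an HA tag on a ribosomal protein once Cre acts. Zp3-Cre acts in growing oocytes, so the tag marks oocyte ribosomes. Every group had the same treatment: 5 IU of PMSG, ovaries taken 44 h later, removal of the cumulus cells by pipetting, and arrest in 1 µM cilostamide, a phosphodiesterase inhibitor. After transfer to medium without cilostamide, pools of 200 oocytes were collected at 5 times. By the study's design, 0 h is prophase I, the stages named early, mid and late prometaphase I follow at 2, 4 and 6 h, and metaphase I is reached at 8 h. At each time there were 2 libraries of ribosome-bound mRNA, pulled down through the tag, and 2 of total RNA, which makes 10 groups and 20 libraries. No group without the tag or without Cre was used, and the number of females behind a pool is not given in the sources used here. The labels do not say that the 2 libraries of a group came from separate animals or cultures, so p-values measure the spread between these libraries, which may be technical.

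Aurora A is a protein kinase of spindle poles that drives microtubule assembly; in mouse oocytes, which have no centrioles, it acts at microtubule organising centres. TPX2 is released from importins near chromosomes, binds Aurora A and holds it in its active form, and TACC3 is an Aurora A substrate that joins microtubules together with clathrin and the polymerase ch-TOG. Anillin is a scaffold of the cell cortex that binds actin, myosin and septins, and it serves the contractile ring through which the polar body is cut off. Fully grown oocytes make almost no new RNA, so the proteins of the first division come from stored transcripts whose loading on ribosomes is controlled largely through their 3′ untranslated regions (UTRs).

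If the spacing of the deposited values is 1 read, which could not be shown, libraries held 27571236 to 51714900 reads in listed genes. The values resemble read counts scaled to a fixed total, but each library carries a scaling factor of its own, and they are called normalised values here. Rises and falls are therefore relative to the other genes of a library and are not amounts per oocyte. The 2 tables were normalised separately, so levels in ribosome-bound and total RNA are set side by side and only changes within a table are compared. On the same assumption 4135 to 62137 reads per library stood behind the members, and counting error was at most 1.56% of a value. All 10 oocyte markers were listed on ribosomes and 9 of 10 in total RNA (Figla was the exception). Of 15 granulosa and cumulus markers, 4 were listed on ribosomes (Cyp19a1, Fshr, Nr5a2 and Serpine2) and 6 in total RNA, and Foxl2 and Amh were in neither table. A gene that was not listed is not thereby shown to be absent. Replicate 1 of the ribosome-bound libraries at 4 h stood apart on the second principal component, with a score of 35.2. The other 9 ribosome-bound libraries had scores of -18.2 to 4.88. Results at 4 h are therefore also given without that replicate 1. In total RNA the 2 libraries at 8 h lay at opposite ends of the second component, with scores of -20.2 and 25.01. Every total RNA change at 8 h, and every comparison of ribosome-bound with total RNA changes at 8 h, rests on these 2 libraries.

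In the mm10 assembly Aurka (ENSMUSG00000027496.15) lies at chr2:172356190-172370535 on the minus strand, and its main annotated transcript has 9 exons, 1905 bases and a 3′ UTR of 600 bases. Tpx2 (ENSMUSG00000027469.16) lies at chr2:152847964-152895321 on the plus strand, with 18 exons, 4365 bases and a 3′ UTR of 1630 bases in that transcript. Tacc3 (ENSMUSG00000037313.16) lies at chr5:33658128-33678995 on the plus strand, with 16 exons, 2899 bases and a 3′ UTR of 405 bases. Anln (ENSMUSG00000036777.7) lies at chr9:22332012-22389188 on the minus strand, with 24 exons, 4605 bases and a 3′ UTR of 1038 bases. Tacc3 shares 289 bases with Tmem129 on the opposite strand, and whether counting used the strand is not given in the sources used here. Tpx2 shares 60 bases with the microRNA gene Mir5622, and Anln contains the intronic gene Gm48646 on its own strand over 1228 bases. None of these 3 neighbours was among the genes listed in either table.

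TTTTAT is the DNA form of the cytoplasmic polyadenylation element, bound by CPEB1 in stored oocyte mRNAs, and AATAAA is the hexamer that directs polyadenylation. The stretches below are TTTTAT matches in Anln, Aurka and Tpx2, the 3 of the 4 mRNAs that hold the element, with 12 bases on either side, read 5′ to 3′ along the mRNA from GENCODE transcripts on mm10; capitals mark the matched letters.
Anln, 31 bases from the transcript end, chr9:22332031-22332060, minus strand: attataaaagtaTTTTATgacataaataaa
Anln, upstream site, chr9:22332767-22332796, minus strand: ttaagagtcttgTTTTATagaaacctcact
Aurka, 53 bases from the transcript end, chr2:172356237-172356266, minus strand: ttaaaggctattTTTTATgttggagttctg
Tpx2, 29 bases from the end of the shorter transcripts, chr2:152894608-152894637, plus strand: gagatttcttgaTTTTATatatttggtttt
Tpx2, upstream site, chr2:152894482-152894511, plus strand: ctatggtgggcaTTTTATacctacgtgata
The element TTTTAT was found in all annotated 3′ UTRs of Aurka, Tpx2 and Anln that were searched and in none of the 3 searched for Tacc3. Among the last 150 bases of 6740 annotated 3′ UTRs, 21.5% hold TTTTAT and 68.3% hold AATAAA. Within that window TTTTAT was present in Anln, Aurka and the shorter annotated Tpx2 3′ UTR of 963 bases; in the longer Tpx2 3′ UTR of 1630 bases it lay 696 bases from the end. The variant TTTTAAT, which can share letters with AATAAA and is held by 8.38% of those windows, the Pumilio-type sequence TGTANATA (7.67%) and the DAZL-type sequence TTTGTTT (9.20%) were not found in any of the 4. Only the mRNA strand was searched, and a match is a description of the letters, not evidence of binding.

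Across the time course the 4 mRNAs took different paths on ribosomes. Tpx2 and Anln gained ribosome-bound signal from 2 h on and ended 1.79-fold and 2.99-fold above 0 h in mean value, while their total RNA did not pass the test at any time. Tacc3, the most abundant of the 4 per kilobase at 0 h, had overlapping ribosome-bound values from 0 to 4 h. By 8 h Tacc3 fell to 0.248 of its 0 h mean on ribosomes and to 0.460 in total RNA. Aurka had 0.768 of its 0 h mean on ribosomes at 8 h, which missed the threshold, and 0.631 in total RNA, which passed it. The plot of values in each library shows these 4 courses.

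**Figure D1:**
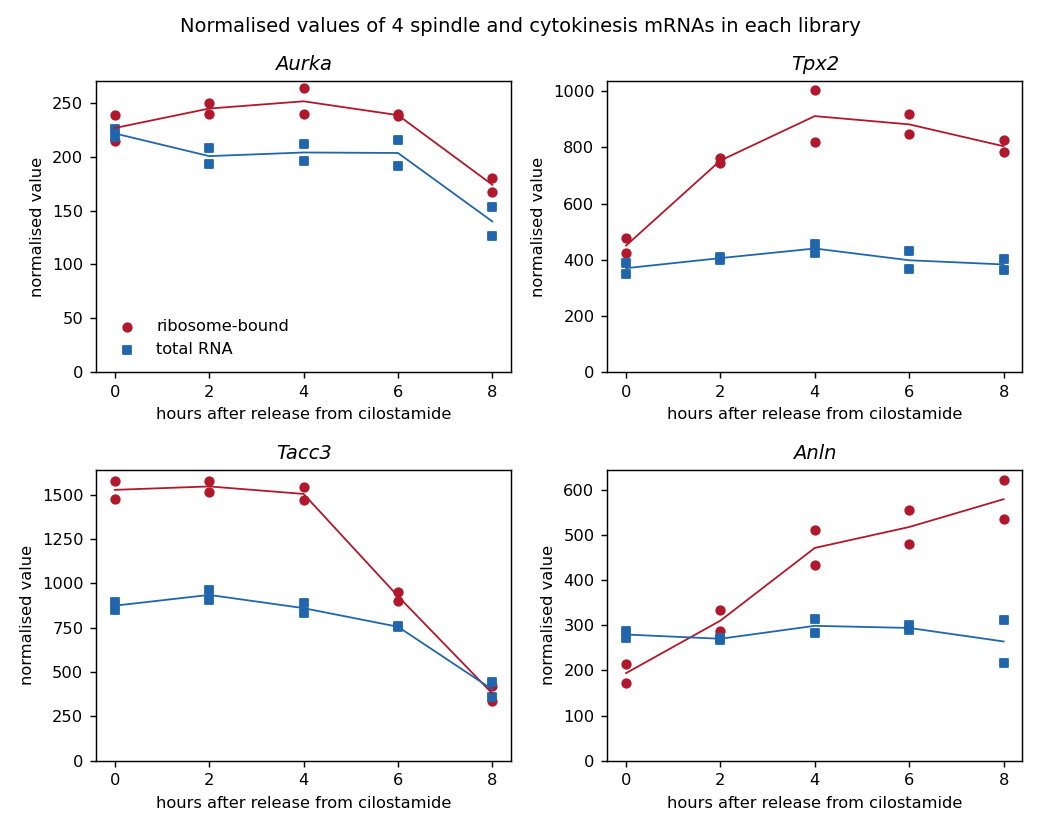
Normalised values of Aurka, Tpx2, Tacc3 and Anln (vertical axes, each from 0) in every library against hours after release from cilostamide. Red circles are ribosome-bound libraries, blue squares total RNA libraries, 2 at each time, and lines join the means; the 2 tables were normalised separately. Ribosome-bound Tpx2 and Anln lie above 0 h at every later time, and ribosome-bound Tacc3 drops after 4 h.

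Aurka, the kinase, was nearly flat on ribosomes until 6 h. Its ribosome-bound normalised values were 215 and 239 at 0 h, 250.3 and 239 at 2 h, 263 and 239 at 4 h, 239.6 and 238 at 6 h, and 168 and 180.2 at 8 h. Both libraries at 8 h were lower than both at 0 h, and the libraries of the other times lay within or above the range of the 0 h pair. The ribosome-bound log2 changes against 0 h were 0.11 ± 0.15 at 2 h, 0.15 ± 0.15 at 4 h, 0.076 ± 0.15 at 6 h and -0.38 ± 0.15 at 8 h (± standard error, here and for all log2 changes), with limma adjusted p-values of 0.756, 0.544, 0.745 and 0.0508. At 8 h 42.1% of all genes on ribosomes passed that threshold, an adjusted p of 0.05 by the Benjamini-Hochberg method, and the median change of all genes was -0.056. Without replicate 1 at 4 h, the library that stood apart, the 4 h change of Aurka was 0.081. The 95% interval of the Aurka change at 8 h ran from -0.69 to -0.063 on the log2 scale. With a correction of each library for transcript length and GC content the change was -0.097, and without replicate 1 at 0 h it was -0.45 with a limma adjusted p of 0.0471.

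Total RNA of Aurka had normalised values of 225 and 218 at 0 h, 208 and 193 at 2 h, 212 and 196 at 4 h, 191 and 216 at 6 h, and 153 and 127 at 8 h. All libraries after 0 h lay below both 0 h libraries, by a small margin until 6 h and by a wide one at 8 h. Total Aurka fell by 0.67 ± 0.15 on the log2 scale at 8 h (limma adjusted p = 0.0162), where 3.02% of all genes in total RNA were called lower. Fewer oocytes in one state, less of the mRNA per oocyte and a smaller share of the library as other mRNAs change cannot be told apart in pooled, scaled samples. The call was lost without either 0 h library or without replicate 2 at 8 h (limma adjusted p = 0.193, 0.0845 and 0.0863), and with the same size of change it was lost in a fit of the 0 and 8 h libraries alone (0.0556) and without a mean-variance trend (0.0982). The ribosome-bound change of Aurka exceeded its total RNA change by 0.29 ± 0.20 at 8 h, an interaction that did not pass (limma adjusted p = 0.33, 95% interval -0.13 to 0.70), where 21% of genes passed in either direction.

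Tpx2, the activator of Aurora A, rose on ribosomes within 2 h. Its ribosome-bound normalised values were 424 and 477 at 0 h, 763 and 743 at 2 h, 1004 and 819 at 4 h, 846 and 918 at 6 h, and 783 and 825 at 8 h. Every library from 2 h on was above both 0 h libraries, the 2 h pair lay below all later libraries, and the 4 h libraries overlapped those of 6 and 8 h. The log2 change against 0 h on ribosomes was 0.74 ± 0.14 at 2 h (limma adjusted p = 0.011), where 0.729% of all genes were called higher. It was 1.01 ± 0.14 at 4 h (limma adjusted p = 0.000106; 9.16% of genes called higher) and 0.97 ± 0.14 at 6 h (5.91e-05; 14.6% called higher). At 8 h it was 0.84 ± 0.14 (limma adjusted p = 0.000121), with 20.2% of genes called higher. Without replicate 1 at 4 h, the library that stood apart, the 4 h change was 0.86 (limma adjusted p = 0.00495). The 2 h call was lost without either 2 h library (adjusted p = 0.172 and 0.123) or without a mean-variance trend (0.192), with changes of 0.72 to 0.76.

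Between neighbouring later times ribosome-bound Tpx2 had log2 changes of 0.27 ± 0.14 at 4 h against 2 h, -0.041 ± 0.14 at 6 h against 4 h and -0.13 ± 0.14 at 8 h against 6 h, none of which passed (limma adjusted p = 0.519, 0.945 and 0.755). Of all genes 0.729%, 0.0663% and 0.689% passed in these 3 comparisons. Total RNA of Tpx2 had normalised values of 389 and 351 at 0 h, 400.3 and 411 at 2 h, 455 and 425 at 4 h, 366 and 431 at 6 h, and 363 and 404 at 8 h. The 2 and 4 h libraries lay slightly above both 0 h libraries and the 6 and 8 h libraries overlapped them. At 8 h the total RNA change of Tpx2 was 0.051 ± 0.13 on the log2 scale (limma adjusted p = 0.881), with a 95% interval of -0.23 to 0.33. In total RNA 0 of 7917 genes passed in limma at 2 h and 0 at 4 h, where 226 and 347 had an unadjusted p below 0.05.

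The ribosome-bound change of Tpx2 beyond its total RNA change was 0.61 ± 0.18 at 2 h (limma adjusted p = 0.206), where 0.0953% of genes passed in either direction. It was 0.76 ± 0.18 at 4 h (limma adjusted p = 0.0153; 3.09% of genes called higher), 0.87 ± 0.18 at 6 h (0.00267; 7.34%) and 0.79 ± 0.18 at 8 h (0.0032; 11.6%). The 4 h call rested on single libraries: it was lost without ribosome-bound replicate 1 at 4 h (0.61, adjusted p = 0.0964), without total RNA replicate 1 at 0 h (0.69, 0.0924) and without total RNA replicate 2 at 4 h (0.71, 0.0728). It was also lost without a mean-variance trend (limma adjusted p = 0.0880) and in a fit of the 0 and 4 h libraries alone (0.0630). With a replicate block of time and letter and no mean-variance trend, chosen after seeing the data, none of the calls at 4, 6 and 8 h held (limma adjusted p = 0.196, 0.0850 and 0.0665).

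Tacc3, the Aurora A substrate that works with clathrin and ch-TOG, moved the other way. Its ribosome-bound normalised values were 1475 and 1578 at 0 h, 1514 and 1577 at 2 h, 1467 and 1540.0 at 4 h, 902 and 952 at 6 h, and 419 and 338 at 8 h. The libraries of 0, 2 and 4 h overlapped, the 6 h pair lay below all of them, and the 8 h pair lay below the 6 h pair. The log2 change on ribosomes was 0.019 ± 0.13 at 2 h and -0.021 ± 0.13 at 4 h (limma adjusted p = 0.968 and 0.936), with 95% intervals of -0.26 to 0.30 and -0.30 to 0.26. At 6 h ribosome-bound Tacc3 fell by 0.72 ± 0.13 (limma adjusted p = 0.000665; 13.3% of genes called lower). At 8 h it fell by 2.01 ± 0.13 (limma adjusted p = 6.11e-09; 21.8% called lower), and this fall ranked 144 among the 7543 genes when ordered from the most negative change. Without replicate 1 at 4 h the 4 h change was 0.014. Between neighbouring times the change of Tacc3 was -0.70 ± 0.13 at 6 h against 4 h (limma adjusted p = 0.0623), and in a fit of those 2 times alone its adjusted p was 0.0363. At 8 h against 6 h ribosome-bound Tacc3 fell by 1.30 ± 0.13 (5.68e-05), where 0.597% of all genes were called lower; without a mean-variance trend that adjusted p was 0.0628.

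Total RNA of Tacc3 had normalised values of 896 and 851 at 0 h, 907 and 962 at 2 h, 832 and 888 at 4 h, 752 and 758 at 6 h, and 442 and 362 at 8 h. The 6 h pair lay below every earlier library and the 8 h pair lay far below the 6 h pair. The total RNA change was -0.21 ± 0.12 on the log2 scale at 6 h (limma adjusted p = 0.696; 0.202% of genes passed) and at 8 h Tacc3 fell by 1.13 ± 0.12 in total RNA (3.16e-05), ranking 262 among 7917 genes. At 8 h the ribosome-bound fall exceeded the fall in total RNA, with an interaction of -0.89 ± 0.17 (limma adjusted p = 0.000684), where 9.43% of genes were called lower. The interaction at 6 h was -0.51 ± 0.17 and did not pass (limma adjusted p = 0.0575).

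Anln, the cortical scaffold, rose on ribosomes at 2 h and reached its highest mean at 8 h. Its ribosome-bound normalised values were 173 and 215 at 0 h, 287 and 333 at 2 h, 509.7 and 433 at 4 h, 479 and 556 at 6 h, and 536 and 622 at 8 h. The 2 h libraries lay above both 0 h libraries, the 4 h libraries lay above both 2 h libraries, and the 6 h libraries overlapped those of 4 h and of 8 h. The log2 change on ribosomes was 0.68 ± 0.16 at 2 h (limma adjusted p = 0.0403), 1.28 ± 0.16 at 4 h (4.38e-05), 1.42 ± 0.16 at 6 h (5.69e-06) and 1.58 ± 0.16 at 8 h (8.76e-07). Without replicate 1 at 4 h, the 4 h change was 1.16 (limma adjusted p = 0.00282). The 2 h call was not stable: its adjusted p was 0.127 without replicate 1 at 0 h, 0.196 and 0.326 without either 2 h library, 0.0618 with the correction for length and GC content, 0.114 in a fit of 0 and 2 h alone and 0.232 without a mean-variance trend, with changes of 0.52 to 0.79. The log2 change of ribosome-bound Anln at 4 h against 2 h was 0.60 ± 0.16, which missed the threshold (limma adjusted p = 0.124) but passed in a fit of the 2 and 4 h libraries alone (0.0403).

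Total RNA of Anln had normalised values of 272 and 287 at 0 h, 268 and 272 at 2 h, 315 and 283 at 4 h, 299 and 289 at 6 h, and 216 and 312 at 8 h. The 2 libraries at 8 h lay on either side of the 0 h pair and were farther apart than those of any other time. The total RNA change at 8 h was -0.10 ± 0.16 on the log2 scale (limma adjusted p = 0.774), with a 95% interval of -0.43 to 0.23. Beyond its total RNA change, ribosome-bound Anln had log2 values of 0.73 ± 0.23 at 2 h (limma adjusted p = 0.226), 1.19 ± 0.23 at 4 h (0.00321), 1.34 ± 0.23 at 6 h (0.000332) and 1.68 ± 0.23 at 8 h (1.24e-05). At 4 h without the library that stood apart it was 1.07 (limma adjusted p = 0.0237), and with the block of time and letter and no mean-variance trend the 4 h call was lost (0.110).

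**Figure D2:**
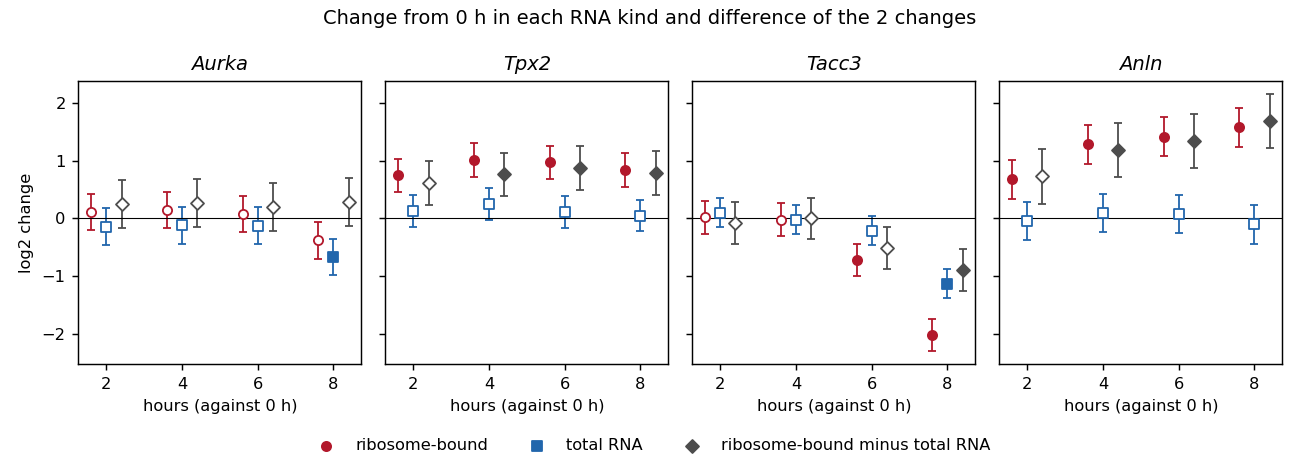
Log2 change of each mRNA against 0 h (vertical axis) at 2, 4, 6 and 8 h, in ribosome-bound mRNA (red circles), in total RNA (blue squares) and as ribosome-bound change minus total RNA change (grey diamonds). Bars are 95% intervals from limma; filled symbols passed an adjusted p of 0.05 and open ones did not. At 8 h the difference of changes was 1.68 for Anln, 0.79 for Tpx2, 0.29 for Aurka and -0.89 for Tacc3.

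The summed ribosome-bound level of the 4 listed granulosa and cumulus markers was 524 and 529 at 8 h, against 199 and 207 at 0 h. In total RNA the sum of the 6 markers listed there, which include Inha and Inhba, was 428 and 549.8 at 8 h, against 389 and 324 at 0 h. Of the 4 markers listed on ribosomes, 2 rose there at 8 h (20.2% of all genes were called higher). These were Serpine2, by 1.74 ± 0.17 on the log2 scale, and Cyp19a1, by 1.31 ± 0.23 (limma adjusted p = 4.49e-07 and 0.000189). In total RNA 1 of the 6 was called higher at 8 h, where 0.947% of all genes were. It was Serpine2, by 0.78 ± 0.15 (limma adjusted p = 0.00498). Nr5a2 and Fshr had log2 values of 0.27 ± 0.29 and 0.61 ± 0.44 at 8 h, which did not pass (limma adjusted p = 0.471 and 0.280), and of -0.11 and -0.23 at 6 h. Of 8 blood, stroma and endothelium markers, 2 were listed on ribosomes, Pecam1 and Tek. Their log2 changes there at 8 h were -0.30 ± 0.22 and -0.76 ± 0.35, which did not pass (limma adjusted p = 0.294 and 0.0952). The summed ribosome-bound level of the oocyte markers was 22012 and 24913 at 8 h, against 51440 and 41861 at 0 h, and 9 of 10 fell, where 21.8% of all genes were called lower. In total RNA the sum of the 9 oocyte markers listed there lay between 13685 and 15962 in all 10 libraries. The part of these shifts in the changes of the 4 mRNAs was not tested.

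Levels of the 4 genes were compared per kilobase of the main transcript. On ribosomes at 0 h the order of mean normalised values per kilobase was Tacc3 with 526 ± 25.1, Aurka with 119 ± 8.84, Tpx2 with 103 ± 8.5 and Anln with 42.1 ± 6.44 (SD, n = 2 each). At 8 h the order was Tpx2 with 184 ± 6.75, Tacc3 with 131 ± 19.8, Anln with 126 ± 13.1 and Aurka with 91.3 ± 4.66. By this length the 8 h libraries of Tacc3 and Anln overlapped, so these neighbours did not differ beyond their spread, and Aurka and Tpx2 at 0 h were close. With the shortest annotated transcript as the length, Tacc3 at 8 h came to 173 ± 26.2 per kilobase and Anln to 126 ± 13.1, which lie farther apart. By that shortest length Tpx2 at 0 h came to 129 ± 10.6 per kilobase and Aurka to 122 ± 9.04, which turns their order round. Among 7532 genes with a length, Anln stood at percentile 94.0 of ribosome-bound level per kilobase at 8 h, against 78.7 at 0 h. Tpx2 stood at percentile 96.4 at 8 h, against 92.7 at 0 h. Tacc3 stood at 94.4 at 8 h, against 99.2 at 0 h, and Aurka at 91.0 at 8 h, against 93.8 at 0 h.

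In total RNA the same order per kilobase held at 0 h, with Tacc3 at 301 ± 11.1, Aurka at 116 ± 2.8, Tpx2 at 84.7 ± 6.13 and Anln at 60.7 ± 2.3 (SD, n = 2 each). At 8 h total Tacc3 averaged 139 ± 19.5 per kilobase, Tpx2 87.8 ± 6.59, Aurka 73.4 ± 9.7 and Anln 57.3 ± 14.7. By the main transcript, neighbours in that 8 h order from Tpx2 to Anln were close to or within their spread. With the shortest annotated transcript as the length, total Tpx2 came to 110 ± 8.25 per kilobase at 8 h and Aurka to 75.1 ± 9.92.

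Ratios within a library do not depend on its scaling. The ribosome-bound ratio of Tpx2 to Aurka per kilobase was 2.04 and 2.00 at 8 h, against 0.862 and 0.872 at 0 h. In total RNA the ratio of Tpx2 to Aurka was 1.04 and 1.39 at 8 h, against 0.753 and 0.703 at 0 h. The ribosome-bound ratio of Tacc3 to Aurka was 1.64 and 1.23 at 8 h, against 4.51 and 4.35 at 0 h. The ratio of Tacc3 to Tpx2 on ribosomes was 0.806 and 0.617 at 8 h, against 5.23 and 4.98 at 0 h. Anln to Tpx2 on ribosomes was 0.649 and 0.714 at 8 h, against 0.386 and 0.427 at 0 h. For each of these ratios the 8 h and 0 h libraries did not overlap; the ratios are descriptions and were not tested.

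**Figure D3:**
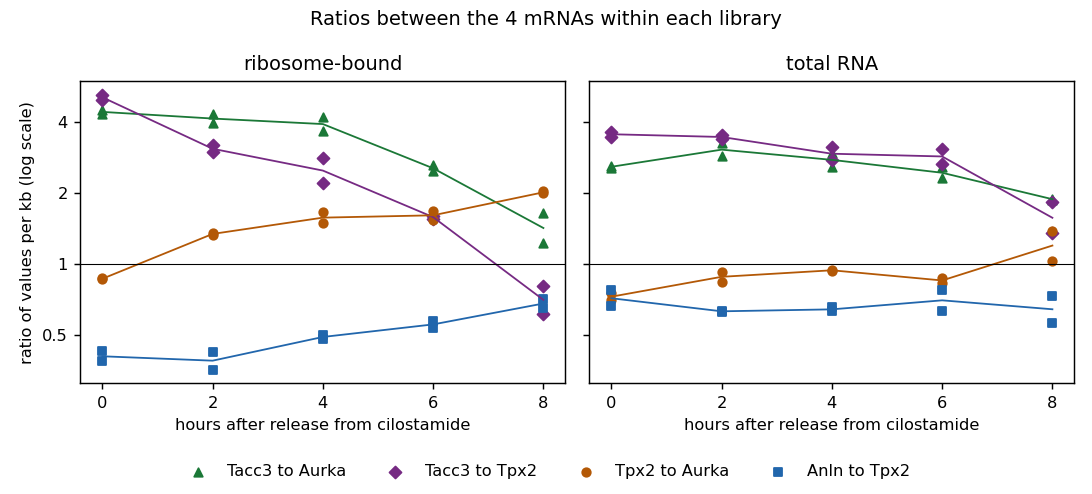
Ratios of normalised values per kilobase between pairs of the 4 mRNAs within each library (vertical axis, log scale) against hours after release from cilostamide, on ribosomes (left) and in total RNA (right). Points are libraries, 2 at each time, and lines join geometric means. On ribosomes the ratio of Tacc3 to Tpx2 crosses 1 between 6 and 8 h. By the main transcripts the ratio of Tpx2 to Aurka exceeds 1 from 2 h on. With the shortest annotated transcripts mean ribosome-bound Tpx2 lay above Aurka at 0 h too (129 against 122 per kilobase).

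Over the 10 ribosome-bound libraries, log2 values of Tpx2 and Anln had a Pearson r of 0.90 and those of Aurka and Tacc3 0.86, whereas Tacc3 and Anln had -0.64. In total RNA Aurka and Tacc3 had 0.92. These coefficients describe libraries that share a time course and are given without a p-value. Among 5496 genes with a mean ribosome-bound value of at least 20, the courses most like that of Tacc3 were those of Cdk1 (r = 0.992), Clta (0.986) and Fbxw21 (0.978). Cdk1 is the catalytic subunit of M-phase promoting factor. Those most like Anln were Dennd4c (0.990), Sfpq (0.985) and Nap1l1 (0.985), and those most like Tpx2 were Phf8 (0.977), Srsf3 (0.970) and Klhl15 (0.969). The genes most like Aurka were Tex30 (0.953), Fmo5 (0.946) and Timm9 (0.944). Each r is over 10 libraries.

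Genes that work with the 4 proteins or are related to them were read from 7 lists. Of 10 measured regulators of Aurora A, 2 rose and 3 fell on ribosomes at 8 h, near the shares of all genes (20.2% higher and 21.8% lower). The list's median log2 change was -0.023, against -0.056 over all genes. Cdc20, an activator of the anaphase-promoting complex, rose by 1.27 ± 0.21 (limma adjusted p = 0.000136) and also rose in total RNA, by 0.87 ± 0.23 (0.0386), where 0.947% of all genes were called higher. Bora, a cofactor through which Aurora A activates Polo-like kinase, rose by 0.51 ± 0.17 on ribosomes (limma adjusted p = 0.026). Fzr1, which targets Aurora A for degradation, fell by 1.23 ± 0.24, Plk1, the Polo-like kinase, fell by 0.67 ± 0.15, and Aurkaip1 fell by 1.52 ± 0.41 on ribosomes (limma adjusted p = 0.000493, 0.00144 and 0.00679). For Plk1 and Fzr1 the ribosome-bound change lay below that in total RNA, by -0.83 ± 0.19 and -1.15 ± 0.35 (limma adjusted p = 0.00236 and 0.0196).

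The sister kinases of Aurora A work in the chromosomal passenger complex. Of 5 measured genes of that complex, 3 rose and 2 fell on ribosomes at 8 h (median log2 change 1.15), where 20.2% of all genes were called higher and 21.8% lower. Aurkc, the meiotic Aurora kinase, rose by 1.63 ± 0.27, Aurkb by 1.62 ± 0.40 and Cdca8, which encodes borealin, by 1.15 ± 0.18 (limma adjusted p = 0.000129, 0.00347 and 6.43e-05). Birc5, which encodes survivin, fell by 1.44 ± 0.16 and Incenp fell by 0.62 ± 0.17 (1.87e-06 and 0.00676). Survivin and borealin mRNAs had opposite differences from their own total RNA changes, -1.35 ± 0.24 and 1.48 ± 0.25 (limma adjusted p = 0.000215 and 0.000136).

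Of 6 measured genes that are partners of TACC3 or of its family (Tacc1), 1 rose and 2 fell on ribosomes at 8 h, with a median of -0.18. In so few genes these counts are near the 20.2% and 21.8% of all genes called higher and lower. Ckap5, which encodes ch-TOG, rose by 0.52 ± 0.13 (limma adjusted p = 0.00429), while the clathrin light chain gene Clta fell by 1.56 ± 0.20 (1.2e-05) and the heavy chain gene Cltc fell by 0.73 ± 0.13 (0.000256). In total RNA Clta, like Tacc3, fell, by 1.20 ± 0.21 (limma adjusted p = 0.00198), and the value for Cltc was 0.028 ± 0.14 (0.941). With the correction for transcript length and GC content Ckap5 no longer passed.

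Of 11 genes of the Ran and importin pathway that frees TPX2, 3 rose and 3 fell on ribosomes at 8 h (median -0.025), close to the shares over all genes (20.2% higher, 21.8% lower). The Ran exchange factor gene Rcc1 rose by 1.30 ± 0.37, the importin gene Kpna2 by 0.64 ± 0.15 and Nusap1 by 0.58 ± 0.16 (limma adjusted p = 0.0095, 0.0025 and 0.00771). Rangap1 fell by 1.76 ± 0.47, Ran by 1.40 ± 0.45 and the oocyte importin gene Kpna7 by 0.38 ± 0.13 (0.00632, 0.0173 and 0.0251). Of 16 genes of augmin, gamma-tubulin complexes and acentriolar poles, 3 rose and 5 fell (median -0.56), beside 20.2% and 21.8% of all genes. Nedd1, which carries gamma-tubulin to the spindle, rose by 1.12 ± 0.16 (limma adjusted p = 3.45e-05), followed by Tubgcp5 (0.61) and Plk4 (0.52), and Tubgcp2 fell by 1.76 ± 0.34 (0.000573), Tubg1 by 1.11 ± 0.30 and Haus8 by 1.04 ± 0.25.

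Of 10 measured spindle kinesins, 8 rose and 1 fell on ribosomes at 8 h, with a median log2 change of 0.71, where 20.2% of all genes were called higher and 21.8% lower. Among the 9 with total RNA values, 5 rose beyond their total RNA change, where 11.6% of genes were called higher. Kif18a, a chromosome-aligning kinesin, rose by 2.23 ± 0.22, Kif20a, a midzone motor, by 1.36 ± 0.20 and Kif2c, a microtubule depolymerase, by 1.15 ± 0.16 (limma adjusted p = 7.28e-07, 3.82e-05 and 1.94e-05). Kif2a fell by 0.49 ± 0.16 (0.0223). With the correction for length and GC content 5 kinesins rose.

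Among 15 measured partners of anillin, septins and contractile ring genes, 4 rose and 3 fell on ribosomes at 8 h, with a median of 0.044; the shares over all genes were 20.2% and 21.8%. The actin nucleator gene Fmn2 rose by 0.98 ± 0.16, Sept2 by 0.91 ± 0.22 and Cd2ap by 0.76 ± 0.15 (limma adjusted p = 8.81e-05, 0.00287 and 0.000537). Sept7 fell by 0.80 ± 0.17 and the myosin heavy chain gene Myh9 by 0.77 ± 0.17 (0.00115 and 0.0015). With the correction for length and GC content 1 gene of this list rose. Across all 7 lists the genes that passed in total RNA at 8 h were Cdc20 and Clta. The plot of the lists shows the ribosome-bound changes spread widely on both sides of 0.

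**Figure D4:**
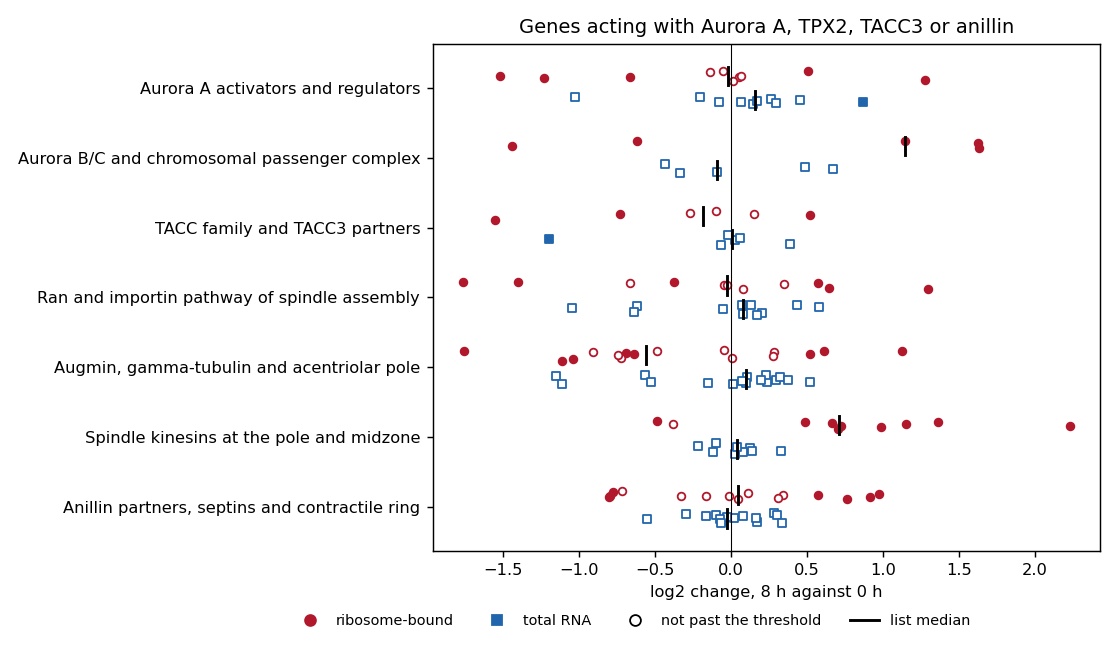
Log2 change at 8 h against 0 h (horizontal axis) of the measured genes of 7 lists, on ribosomes (red circles) and in total RNA (blue squares). Filled symbols passed a limma adjusted p of 0.05, open ones did not, and black ticks are list medians, which on ribosomes ran from -0.56 for augmin and gamma-tubulin genes to 1.15 for the chromosomal passenger complex.

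The 4 mRNAs were last set beside all genes by the TTTTAT element shown above. Of 1451 genes with TTTTAT in the last 150 bases of the 3′ UTR, 35.0% rose and 10.1% fell on ribosomes at 8 h. Of 5289 genes without it, 17.5% rose and 23.9% fell. In total RNA at 8 h 1.54% of the genes with the element rose and 1.47% fell, and 0.931% of those without it rose and 2.87% fell. By this rule, with 1 main 3′ UTR per gene, Anln and Aurka hold the element and Tpx2 and Tacc3 do not. On ribosomes at 8 h Anln rose and Aurka did not pass, and of those without it Tpx2 rose and Tacc3 fell. Genes with the element had a median GC content of 47.5%, and those without it 49.3%; these shares are descriptions, and the part of GC content or UTR length in them was not tested.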

How the data were processed

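Ribosome-bound mRNA and total RNA of mouse oocytes were each measured at 5 times in 2 libraries. The submitters' processing notes name Trimmomatic 0.36 and FastQC for reads, HISAT2, SAMtools and HTSeq, the packages limma and edgeR, and the mm10 genome. The authors deposited a normalised signal per gene and library, in 1 table per RNA kind; the values are whole multiples of a step in every library (100% within 0.05 of a read), and 10 of 20 library totals exceed what plain CPM allows. Groups follow the sample titles; the description of the total RNA samples calls them ribosome-bound. Replicates 1 and 2 are letters A and B.

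Values were taken as log2(value + 1), which understates changes of low genes, and a gene was kept if 2 or more libraries reached a value of 1. Every listed gene met this filter, so it removed none. A model over all times was fitted in limma 3.58.1 (R 4.3.3) with a mean-variance trend, and p-values were adjusted over all genes of a comparison by Benjamini-Hochberg; tests are two-sided at 0.05. The change beyond total RNA is an interaction term between RNA kind and time, for 7346 genes. The fit was tested on simulated data. The 15 comparisons set each later time against 0 h for both RNA kinds and for their difference, and neighbouring times on ribosomes. Coordinates, transcripts and 3′ UTRs are from GENCODE vM21; 8103 of 8114 gene IDs matched, 5839 with the same version. The members, gene lists, markers and motifs were chosen with earlier results of these data known. Named list genes are up to 3 per list and direction that passed on ribosomes at 8 h with the smallest p; of these, 1 gene is not reported here; genes most like a member are the 3 with the highest Pearson r. The 2 libraries of every group differed beyond counting error (chi-square over its degrees of freedom, 48.6 to 154), so no libraries were merged.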

Additional observations from a re-analysis of the deposited data

Results flagged for a closer look

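The change on ribosomes differed from that in total RNA, by a test of the difference itself, in 7 cases. These come from 4 mRNAs, each tested at 2, 4, 6 and 8 h. All times of an mRNA are set against the same 0 h libraries, so its cases are not separate observations. Of all 7346 genes, 3.09%, 7.34% and 11.6% were called higher by this test at 4, 6 and 8 h, and 9.43% were called lower at 8 h. For Anln the difference of the 2 log2 changes, ribosome-bound minus total RNA, came to 1.19 at 4 h, to 1.34 at 6 h and to 1.68 at 8 h. For Tpx2 the differences were 0.76 (4 h), 0.87 (6 h) and 0.79 (8 h), and for Tacc3 the 8 h difference was -0.89. At 8 h both Anln libraries and both Tpx2 libraries on ribosomes lay above both 0 h libraries, and both Tacc3 libraries lay below them. With a replicate block of time and letter and no mean-variance trend, 4 of the 7 were no longer past the threshold, Tpx2 at 4, 6 and 8 h and Anln at 4 h (limma adjusted p = 0.196, 0.0850, 0.0665 and 0.110).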

How the results depend on the processing

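The planned edgeR test on reads recovered from the step of each library was not run, because the smallest step could not be shown to be 1 read. With 1 of the other settings changed, 539 of 556 changes of the 4 mRNAs kept their direction and their side of the threshold, and with a library left out 275 of 304 did. The 556 include a setting without the filter on low values. That filter removed no gene, so this setting could only repeat the main fit. Aurka at 8 h lost its total RNA call with no mean-variance trend and with only the times compared in the fit (-0.67 in both), and without a library it ran from -0.80 to -0.53. On ribosomes Aurka at 8 h ran from -0.45 to -0.30 without a library. The length and GC correction made the 8 h ribosome-bound changes of the other mRNAs smaller, 1.24 for Anln, 0.64 for Tpx2 and -1.83 for Tacc3. Beyond total RNA they became 1.46, 0.68 and -0.71, and all of these calls were kept. Total RNA Tpx2 at 8 h, which did not pass, was -0.042 with the length and GC correction and -0.026 to 0.13 without a library, and total RNA Anln at 8 h ran from -0.37 to 0.16. Deviations of libraries with the same letter were only weakly correlated. The correlations were -0.11 to 0.13 within an RNA kind, -0.08 to 0.04 between kinds at the same time and -0.11 to 0.17 between kinds at different times. Such correlations cannot tell whether libraries of the same letter came from the same oocytes. With the letter as a replicate block 57 genes passed on ribosomes at 2 h (111 without it) and 3081 at 8 h (3173 without it), and Anln at 2 h no longer passed (adjusted p = 0.0548). With a replicate block of time and letter every call of the 4 mRNAs beyond total RNA was kept. The same block with no mean-variance trend, an alternative added after seeing the data, ended the calls beyond total RNA of Tpx2 at 4, 6 and 8 h (adjusted p = 0.196, 0.0850 and 0.0665; 0.79 at 8 h) and of Anln at 4 h (0.110).

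Small changes that did not pass turned direction. With the length and GC correction these were ribosome-bound Aurka at 6 h against 4 h (0.0087), Tacc3 at 4 h against 0 h (0.10) and Tacc3 at 4 h against 2 h (0.038), and with libraries centred on their medians Tacc3 at 4 h against 0 h (0.0063). Without a library the ranges were, on ribosomes, Aurka at 4 h against 2 h -0.031 to 0.11, Tpx2 at 6 h against 4 h -0.19 to 0.11, Tacc3 at 2 h -0.030 to 0.067 and Tacc3 at 4 h -0.070 to 0.027. In total RNA they were Tpx2 at 6 h -0.015 to 0.22 and Tacc3 at 4 h -0.070 to 0.024, and beyond total RNA Tacc3 at 4 h -0.047 to 0.050. Counts of genes that passed at 8 h were 2159 to 3202 on ribosomes over all settings (3173 as reported), 52 to 414 in total RNA (314) and 899 to 1545 beyond total RNA (1543); at 2 h on ribosomes they were 0 to 171 (111). What limits these calls was not tested; each group has 2 libraries, and counting error, if a step is 1 read, was at most 1.56% of a value.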
